A study of Mus musculus with 16 samples.

Results

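The light chain variable (V) gene segments were the 107 rows of the gene count table whose names begin with Igkv (104 V kappa segments) or Iglv (3 V lambda segments), out of 39179 genes in all. They were measured by stranded poly(A) RNA sequencing of B cells from the spleens of NOD.LT mice, a strain that develops autoimmune diabetes. All mice were 15 weeks old and had eaten their diet freely for 5 weeks. The labels do not expand the diet names; in work with these feeds HAMSA stands for acetylated high-amylose maize starch, HAMSB for the butyrylated form and HAMS for the unmodified form, and the NP diet, which the labels also call Gordons or GD, was the reference feed. Each diet had 4 libraries, numbered 1, 2, 3 and 6 for HAMSA, 1, 2, 5 and 6 for HAMSB, 1, 4, 5 and 6 for HAMS, and 1, 3, 4 and 5 for NP. B cells were obtained by negative selection with a magnetic pan B cell kit. The labels do not state which animals the libraries came from, so p-values measure the spread between these libraries, which may be technical.

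A light chain V segment encodes most of the variable domain of an antibody light chain. In each developing B cell a recombinase joins 1 V segment to a J segment, the joined exon is spliced to a constant region (Igkc for kappa), and the cell and its offspring then transcribe that choice. The share of reads that falls on each segment is therefore a count of which light chains the population makes, weighted by the RNA of each cell, and plasma cells carry far more of it than resting B cells. In mice the kappa locus is used by most B cells and the lambda locus by a minority. In these bulk libraries fewer cells of a type and less RNA per cell cannot be told apart.

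The segments of V kappa lie on chromosome 6 and those of V lambda on chromosome 16 (GRCm38, GENCODE M21). They fall into families of related sequence, and close copies are hard to separate by short reads. The coding V exons of 105 matched segments were compared with each other, and the nearest other segment was identical at 94.4% of aligned bases in the median case. In 47 of them it was identical at 95% or more. The closest pair, Igkv5-43 and Igkv5-45, is shown because both stood out in 1 library. Capitals mark the 3 bases of 298 at which they differ, and the 2 V exons lie at chr6:69823355-69823652 and chr6:69775750-69776047, both on the minus strand.
Igkv5-43: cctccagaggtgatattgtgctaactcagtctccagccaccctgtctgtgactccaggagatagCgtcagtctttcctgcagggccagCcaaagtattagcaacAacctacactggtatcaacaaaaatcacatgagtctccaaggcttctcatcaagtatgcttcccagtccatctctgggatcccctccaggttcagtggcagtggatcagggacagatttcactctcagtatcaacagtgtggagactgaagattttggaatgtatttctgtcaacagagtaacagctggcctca
Igkv5-45: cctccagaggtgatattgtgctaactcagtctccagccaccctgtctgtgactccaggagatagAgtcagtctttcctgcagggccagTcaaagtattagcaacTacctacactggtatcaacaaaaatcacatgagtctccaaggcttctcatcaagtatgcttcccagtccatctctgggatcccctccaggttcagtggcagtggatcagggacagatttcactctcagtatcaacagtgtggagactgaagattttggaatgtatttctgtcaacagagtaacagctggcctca

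Igkv5-39, of the same family, is shown because it was the largest segment of another library. Its V exon (chr6:69900424-69900721, minus strand) was identical to that of its nearest segment, Igkv5-45, at 91.6% of bases, and capitals mark the 25 bases that differ.
Igkv5-39: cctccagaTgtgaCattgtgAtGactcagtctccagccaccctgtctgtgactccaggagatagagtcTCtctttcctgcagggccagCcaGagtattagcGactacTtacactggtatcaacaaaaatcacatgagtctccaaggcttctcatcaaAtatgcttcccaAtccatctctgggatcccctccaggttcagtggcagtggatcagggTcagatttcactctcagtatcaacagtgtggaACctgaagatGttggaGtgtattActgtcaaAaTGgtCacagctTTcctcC

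Of V lambda, Iglv1 was the most used segment of all. Its V exon (chr16:19085017-19085321, minus strand) and that of Iglv2 (chr16:19260401-19260705, minus strand) were identical at 97.0% of 305 bases, with 9 that differ. The last 300 bases of each are printed (chr16:19085017-19085316 and chr16:19260401-19260700), with the 8 that differ there in capitals. Both are shown because the balance of kappa and lambda rests mostly on them.
Iglv1: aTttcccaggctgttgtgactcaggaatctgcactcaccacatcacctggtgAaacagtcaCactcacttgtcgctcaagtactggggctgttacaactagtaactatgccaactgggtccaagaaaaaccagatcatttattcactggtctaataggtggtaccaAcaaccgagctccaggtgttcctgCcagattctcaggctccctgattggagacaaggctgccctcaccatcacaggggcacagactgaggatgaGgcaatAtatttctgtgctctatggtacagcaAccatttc
Iglv2: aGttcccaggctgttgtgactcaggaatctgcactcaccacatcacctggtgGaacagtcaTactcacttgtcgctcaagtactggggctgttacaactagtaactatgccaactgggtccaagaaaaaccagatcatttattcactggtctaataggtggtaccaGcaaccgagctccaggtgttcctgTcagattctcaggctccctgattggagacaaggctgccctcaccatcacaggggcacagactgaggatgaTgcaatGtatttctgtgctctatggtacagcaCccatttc

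Igkv8-24 was the largest segment of 1 NP library, and Igkv3-1, the segment nearest to the J segments, the smallest p between HAMSA and HAMSB. The last 300 bases of their V exons are printed (chr6:70216858-70217157, minus strand, for Igkv8-24 and chr6:70703878-70704177, plus strand, for Igkv3-1). Capitals mark the 23 bases at which Igkv8-24 differs from Igkv8-30 and the 20 at which Igkv3-1 differs from Igkv3-2, the nearest segment of each.
Igkv8-24: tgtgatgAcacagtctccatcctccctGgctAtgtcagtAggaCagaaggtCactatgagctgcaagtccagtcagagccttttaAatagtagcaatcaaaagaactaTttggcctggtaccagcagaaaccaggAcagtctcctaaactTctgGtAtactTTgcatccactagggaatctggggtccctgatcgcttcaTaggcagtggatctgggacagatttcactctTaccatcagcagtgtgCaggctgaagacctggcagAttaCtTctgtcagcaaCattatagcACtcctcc
Igkv3-1: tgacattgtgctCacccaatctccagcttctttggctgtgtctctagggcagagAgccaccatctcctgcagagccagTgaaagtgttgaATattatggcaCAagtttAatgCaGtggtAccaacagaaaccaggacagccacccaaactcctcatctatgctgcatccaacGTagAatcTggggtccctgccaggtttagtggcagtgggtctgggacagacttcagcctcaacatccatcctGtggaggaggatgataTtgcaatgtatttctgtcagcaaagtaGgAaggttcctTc

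HAMSA libraries, with totals of 15053965 to 30723337 gene counts, were shallower than those of HAMSB (34720317 to 46206200), HAMS (31826691 to 37929476) and NP (31707731 to 42752976). Light chain V segments took 61188 to 167669 counts of a library, 0.196% to 0.463% of the total. With such counts the 95% Wilson interval of any segment share printed here is at most 0.215 percentage points wide on either side, covering counting error only. The B cell markers Ms4a1, Cd79a, Cd79b and Pax5 were present in every library, at 699.7 to 1649 CPM (counts scaled to the size of the library, with TMM factors) for Ms4a1, 1789.7 to 3073 for Cd79a, 1268 to 2715 for Cd79b and 263 to 484 for Pax5. The erythroid list of 6 genes reached 6147 CPM in HAMSA, 1229 in HAMSB, 98.6 in HAMS and 1268 in NP. HAMSB 5 stood apart, with 11.4% of reads set aside as multimapping, the lowest of the 16 libraries, 10.2% unmapped, the highest, and the lowest light chain V level. No library repeated another (chi-square per degree of freedom of at least 31.3 over the segments in all 24 pairs of 1 diet).

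Use was spread over many segments. Of the 107, 31 held on average 1% or more of the light chain V counts, 41 held 0.1% to 1%, 18 held 0.01% to 0.1% and 17 held less. The 15 most used held 58.0% together. Counts passed the filter of the gene-wise test for 94 segments; of the 13 that did not, Igkv19-93 had no count in any library, where 3 counts of 1800434 would be a share of 0.000167%. A total of 6 rows are annotated as pseudogenes, and their summed share averaged 0.557% in HAMSA, 0.447% in HAMSB, 0.549% in HAMS and 0.505% in NP.

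Iglv1, the major lambda segment, had the highest mean share, 5.87% ± 0.830 (SD, n = 16 libraries), with a lowest value of 4.13%, a median of 5.83% and a highest of 7.44%. Igkv1-110, a kappa segment in the J-distal part of the locus, followed at 5.76% ± 1.02 (4.25% to 7.43%, median 5.51%). Each of the first 15 segments differed from the next in rank by less than the larger SD of the pair. Igkv1-135 averaged 4.77% ± 0.579, Igkv12-44 4.28% ± 0.762 and Igkv4-53 4.04% ± 1.48. Between 3% and 4% stood Igkv1-132, Igkv12-46, Igkv6-32, Igkv10-96, Igkv5-45 and Igkv8-24, and below them Iglv2 at 2.98% ± 0.766, Igkv6-20, Igkv1-117 and Igkv1-133. Iglv3, the third lambda segment, averaged 1.59% ± 0.446. When counts were divided by annotated exon length, Igkv14-126 entered the first 15, Igkv1-117 left them and the other 14 stayed.

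**Figure D1:**
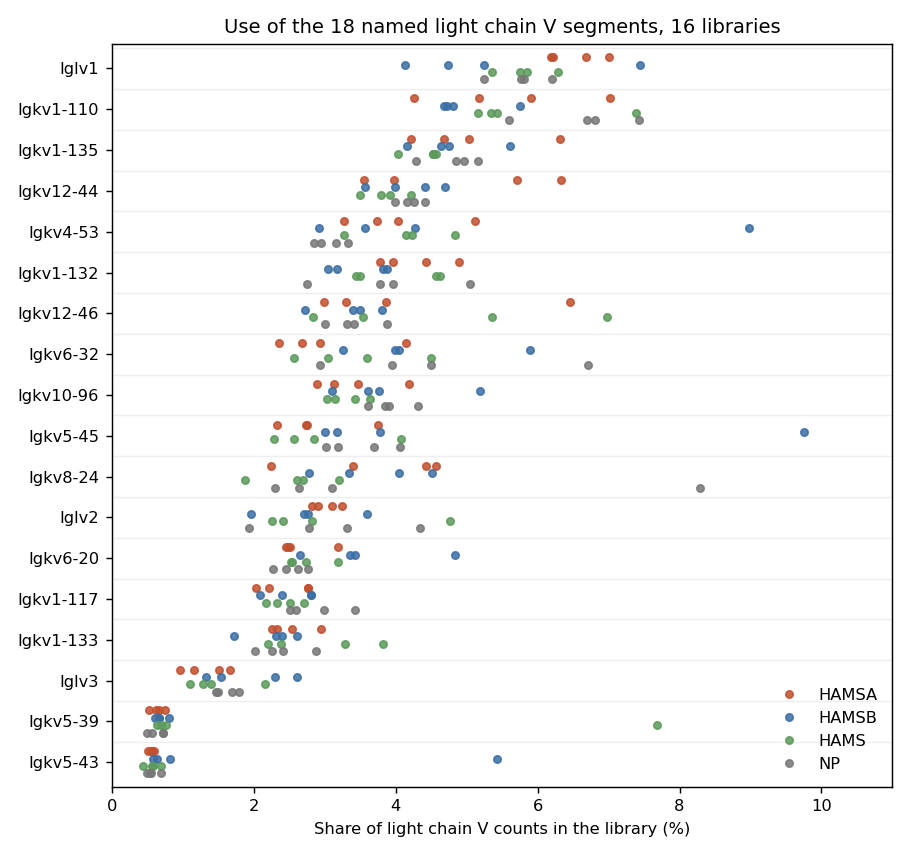
Each point is the share of 1 segment (row) in the light chain V counts of 1 library, in percent, for the 18 segments named by rule; colours give the diet, 4 libraries each. The diets are mixed in most rows, while Igkv5-39 lies at 7.68% in 1 HAMS library, and Igkv5-43 and Igkv5-45 lie at 5.43% and 9.76% in 1 HAMSB library.

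By family, Igkv1 segments (11 rows) took the largest part, with a mean of 22.3% ± 2.30 in HAMSA, 20.4% ± 1.31 in HAMSB, 22.3% ± 1.96 in HAMS and 23.2% ± 2.02 in NP (SD, n = 4 each). The Igkv6 family held 10.8% on average, Igkv12 9.61% and Igkv8 8.05%. The Igkv4 family, the largest with 27 rows, held only 7.33%. The 5 rows of the Igkv5 family varied most among the large families, at 3.81% to 5.07% in HAMSA, 4.57% to 16.1% in HAMSB, 3.72% to 11.1% in HAMS and 4.38% to 5.66% in NP.

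Single libraries, rather than diets, held the most uneven segments. Igkv5-39 held 0.749%, 0.663%, 0.531% and 0.625% of light chain V counts in HAMSA libraries, 0.667%, 0.807%, 0.660% and 0.612% in HAMSB, 7.68%, 0.635%, 0.689% and 0.761% in HAMS, and 0.572%, 0.493%, 0.723% and 0.728% in NP. HAMS 1 alone was high, with 11748 counts (95% Wilson interval 7.55% to 7.82%), 11.6 times the median of the other 15 libraries, and outside it the diets overlapped. There Igkv5-39 was the most used segment of all.

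Igkv5-43 held 0.512%, 0.549%, 0.567% and 0.589% in HAMSA, 0.822%, 0.644%, 0.579% and 5.43% in HAMSB, 0.568%, 0.4405%, 0.575% and 0.692% in HAMS, and 0.501%, 0.701%, 0.556% and 0.537% in NP. The value of HAMSB 6 (8679 counts, interval 5.32% to 5.54%) was 9.55 times the median of the others. Igkv5-45, its near-identical partner shown above, held 9.76% in the same library (15606 counts, interval 9.61% to 9.90%), against 2.29% to 4.07% in the other 15. The pair together took 15.2% of light chain V counts in HAMSB 6 and 2.73% to 4.64% elsewhere. Igkv5-45 had 1.80 counts for each count of Igkv5-43 in HAMSB 6, where the other libraries had 3.95 to 7.30. With 3 bases between the exons, counting can split or drop reads of either, so the level of each is uncertain.

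Other segments that were high in single libraries did not meet the rule for naming and were chosen after their values were seen. Igkv3-1 held 5.87% in HAMSA 2 (interval 5.70% to 6.05%), 4.69 times the median of the other libraries, and Igkv15-103 held 5.60% in HAMSA 3, 3.78 times. Igkv14-126 held 6.13% in HAMS 5 (3.20 times) and Igkv8-16 held 2.02% in NP 1 (5.08 times). Igkv7-33, at under 1% everywhere, was highest in HAMSA 6 (0.755%) and HAMS 1 (0.610%). Among the named segments, Igkv4-53 held 8.98% in HAMSB 5 and Igkv8-24 held 8.29% in NP 5. No diet was free of such a segment. Among heavy chain V genes that held over 1% in a library, the highest ratio to the median of the other libraries was 7.74. It was that of Ighv2-9-1 in HAMSB 6, at 13.4% of heavy chain V counts. That gene was likewise picked after its values were seen.

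**Figure D2:**
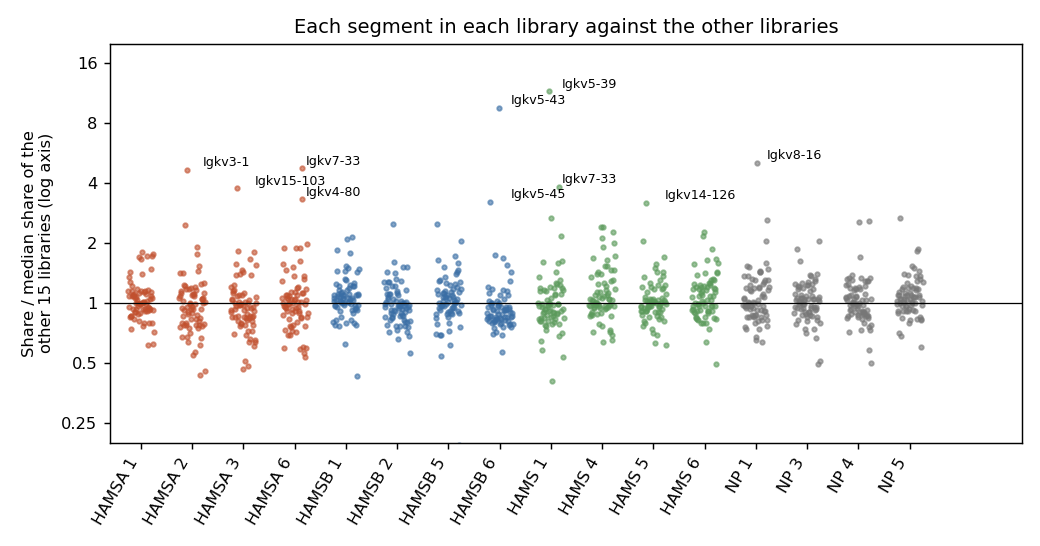
The share of each segment in a library divided by its median share in the other 15 libraries, on a log axis, for segments that passed the filter with a mean share of at least 0.1%; colours give the diet. Most points lie near 1, and the highest are Igkv5-39 at 11.6 in HAMS 1 and Igkv5-43 at 9.55 in HAMSB 6.

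Distances in segment use covered much the same range within and between diets. The Bray-Curtis distance, the percentage of use that 2 libraries do not share, had a median of 13.9% over 24 pairs of the same diet (8.16% to 18.2%) and of 13.6% over 96 pairs of different diets (8.76% to 20.5%). Over the 94 tested segments the coefficient of variation of the share across all libraries had a median of 30.8%. It was lowest for Igkv6-15 (10.7%) and highest for Igkv5-39 (160%).

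The effective number of V kappa segments, the count of equally used segments that would give the same evenness (inverse Simpson index), was 29.9 ± 1.12 in HAMSA, 29.4 ± 3.21 in HAMSB, 31.3 ± 2.96 in HAMS and 30.3 ± 0.942 in NP (SD, n = 4 each). The spread between libraries of a diet exceeded these differences (exact permutation test among diets, p = 0.699, adjusted p = 0.815 over 7 library measures). HAMSB 6 had the lowest value, 25.8, and HAMS 4 the highest, 34.7. The largest single segment took 6.73% ± 0.378 in HAMSA, 7.98% ± 1.77 in HAMSB, 6.67% ± 0.840 in HAMS and 7.31% ± 0.729 in NP (exact permutation p = 0.309, adjusted p = 0.433). Without HAMSB 1, whose largest segment held 5.76%, this test gave exact permutation p = 0.0200 and adjusted p = 0.0468.

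The summed level of light chain V segments was 3574, 3989.5, 4072 and 4762 CPM in HAMSA libraries, 3342, 3866, 1905 and 3451 in HAMSB, 4121, 4179, 3094 and 2798 in HAMS, and 3415, 3234, 2951 and 2993 in NP. All 4 HAMSA libraries stood above all 4 NP libraries, while HAMSB and HAMS overlapped with both. The means were 4099 ± 492 CPM in HAMSA, 3141 ± 854 in HAMSB, 3548 ± 706 in HAMS and 3148 ± 217 in NP (SD, n = 4 each). The diets did not pass the test (exact permutation p = 0.146, adjusted p = 0.255). HAMSA against NP alone gave exact permutation p = 0.0286. No smaller p can be reached with 4 libraries a diet, and adjustment over the 42 pairwise tests of library measures gave 0.171.

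Genes of plasma cells are given beside this level. The 7 listed plasma cell genes (Jchain, Sdc1, Prdm1, Xbp1, Tnfrsf17, Mzb1 and Derl3, of which Jchain is listed as Igj), all of which passed the filter, summed to 1296 to 1888 CPM in HAMSA, 619.6 to 1283 in HAMSB, 957 to 1633 in HAMS and 973 to 1248 in NP. No library had a defining marker of the list at 0. Of the 7 genes, 6 had higher values in HAMSA than in NP, 0 passed edgeR's test (smallest adjusted p = 0.0737) and 5 had an unadjusted p under 0.05, as did 25.1% of all genes. The share of multimapping reads was 17.03% to 21.2% in HAMSA, 11.4% to 18.1% in HAMSB, 16.05% to 20.9% in HAMS and 14.7% to 17.4% in NP. The 5 listed marginal zone B cell genes summed to 2514 to 2836 CPM in HAMSA, 1999 to 3202 in HAMSB, 1956 to 3606 in HAMS and 3334 to 3968 in NP, and the erythroid genes to 404 to 6147 CPM in HAMSA, 14.4 to 1229 in HAMSB, 17.8 to 98.6 in HAMS and 64.0 to 1268 in NP. Neutrophil genes (5 listed) summed to 66.0 to 285 CPM in HAMSA, 35.9 to 219.6 in HAMSB, 3.80 to 98.7 in HAMS and 7.69 to 54.1 in NP, so that HAMSA and NP did not overlap. T cell genes (6 listed) summed to 24.1 to 104 CPM in HAMSA, 20.5 to 138 in HAMSB, 11.1 to 59.98 in HAMS and 12.1 to 35.0 in NP. The part of these cell types or of mapping in the V level was not tested.

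No light chain V segment passed the test between any 2 diets. With edgeR's quasi-likelihood test over all 15021 tested genes (Benjamini-Hochberg adjusted p of at most 0.05), 0 of 94 segments were called in HAMSA against HAMS, where 0% of all genes were called. The count was also 0 in HAMSB against HAMS (all genes 1.68%, with 0.433% higher and 1.24% lower), HAMSA against HAMSB (0.779%, with 0.586% higher and 0.193% lower), HAMS against NP (4.33%, with 2.27% higher and 2.06% lower), HAMSA against NP (1.41%, with 0.606% higher and 0.806% lower) and HAMSB against NP (0.0732%). The test for any difference among the 4 diets called 0 of 94 (all genes 3.78%). An unadjusted p under 0.05 was reached by 5 segments in HAMSA against HAMS (5.32%, all genes 11.7%), 11 in HAMSB against HAMS (11.7%, all genes 14.1%), 20 in HAMSA against HAMSB (21.3%, all genes 19.4%), 9 in HAMS against NP (9.57%, all genes 19.3%), 15 in HAMSA against NP (15.96%, all genes 25.1%) and 4 in HAMSB against NP (4.26%, all genes 6.89%). For any diet it was reached by 14 (14.9%, all genes 22.03%). The share of segments was thus below that of all genes except in HAMSA against HAMSB.

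DESeq2 called 0 segments in HAMSA against HAMS (all genes 0.664%) and 0 in HAMSB against NP (all genes 0.760%). It called 2 of 88 in HAMSB against HAMS (all genes 4.40%), 4 of 86 in HAMSA against HAMSB (4.20%), 5 of 93 in HAMS against NP (8.06%), 3 of 93 in HAMSA against NP (8.30%) and 9 of 93 for any diet (11.4%). These shares were below those of all genes or, for HAMSA against HAMSB with 4.65%, near them.

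The median fold change of the segments differed between comparisons, with no segment called by edgeR. In HAMSA the median log2 fold change over the 94 segments was 0.15 against HAMS (68 positive), 0.34 against HAMSB (80 positive) and 0.35 against NP (82 positive). In HAMSB it was −0.24 against HAMS (29 positive) and −0.02 against NP (45 positive), and in HAMS it was 0.155 against NP (63 positive). The median over all genes lay within 0.02 of 0 in each. Single libraries moved these medians. Without 1 library the median ran from 0.057 (without HAMS 6) to 0.223 (without HAMS 4) in HAMSA against HAMS, from 0.192 (without HAMSB 5) to 0.484 (without HAMSB 2) in HAMSA against HAMSB, and from 0.282 to 0.408 in HAMSA against NP. It ran from −0.313 (without HAMSB 1) to −0.105 (without HAMS 4) in HAMSB against HAMS, where leaving out HAMSB 5 gave −0.126, and from 0.032 (without HAMS 4) to 0.259 (without HAMS 5) in HAMS against NP. In HAMSB against NP it changed sign, from −0.12 (without HAMSB 2) to 0.136 (without HAMSB 5, 68 positive).

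The medians also differed between libraries numbered 1 to 4 and those numbered 5 and 6. In numbers 1 to 4 they were −0.106 in HAMSA against HAMS (32 positive), 0.063 in HAMSA against HAMSB, 0.262 in HAMSA against NP and 0.396 in HAMS against NP. In numbers 5 and 6 they were 0.612, 0.802 and 0.53 for HAMSA against HAMS, HAMSB and NP, and −0.047 for HAMS against NP. These values rest on single libraries, as HAMSA 6 and NP 5 are there the only libraries of their diets. HAMSA 6 also had the highest light chain V level of all libraries. When each library was scaled to its own light chain V total, so that the fold change is one of use, the medians over the segments ran from −0.05 to 0.00. Medians near 0 follow from this scaling and are no result on use. Those over all genes, −0.469 to 0.240, largely carry the difference in V level with its sign reversed. Again 0 of 94 segments were called in every comparison and for any diet (all genes 0%, 0.186%, 0%, 1.24%, 0.439% and 0.273%, and 1.23% for any diet).

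The segments with the smallest p in edgeR's test were picked by that value, so they were chosen after their values were seen. None passed that test. DESeq2 called Igkv3-1 in HAMSA against HAMSB and Igkv4-53 in HAMSA against NP. In HAMS against NP it called Igkv3-3, Igkv3-4 and Igkv4-53 among others, but not Igkv5-39. The shares of all genes that it called stand above. Igkv3-1 stood at 40.9, 234, 93.8 and 59.7 CPM in HAMSA and at 38.6, 41.3, 27.04 and 32.8 CPM in HAMSB. The log2 fold change was 1.61 ± 0.41 (SE; edgeR adjusted p = 0.0794), HAMSA 2 alone held the highest value, and the diets overlapped. Without HAMSA 1 the edgeR adjusted p was 0.0335 and without HAMSA 6 it was 0.0449, and over all omissions of 1 library the log2 fold change was 0.89 (without HAMSA 2) to 1.89.

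Igkv4-53 stood at 183, 161, 152 and 156 CPM in HAMSA and at 97.2, 95.1, 93.3 and 99.6 CPM in NP. These groups did not overlap, with a log2 fold change of 0.76 ± 0.20 (edgeR adjusted p = 0.0596, 0.0127 when these 2 diets alone were fitted, 0.0486 without HAMS 4 and 0.0338 without HAMS 5). HAMS libraries, at 171, 202, 101 and 118 CPM, also all stood above NP (0.62 ± 0.20, edgeR adjusted p = 0.0886). As a share of V counts, which takes out the summed level, Igkv4-53 held 4.04% ± 0.781 in HAMSA, 4.94% ± 2.75 in HAMSB, 4.12% ± 0.643 in HAMS and 3.07% ± 0.217 in NP (n = 4 each; edgeR adjusted p = 0.312 for any diet with V-total scaling).

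Igkv3-3 and Igkv3-4, neighbours near the J segments, had higher values in HAMS than in NP. Igkv3-3 stood at 4.66, 4.82, 2.13 and 2.45 CPM in HAMS and 1.78, 1.85, 1.76 and 1.45 CPM in NP (1.04 ± 0.29, edgeR adjusted p = 0.0534). Igkv3-4 stood at 66.5, 53.4, 14.6 and 23.9 CPM in HAMS and 14.8, 17.5, 17.1 and 16.4 CPM in NP (1.27 ± 0.37, adjusted p = 0.0655). HAMS 1 and HAMS 4 were the highest libraries for both, and for Igkv3-4 the diets overlapped. Without HAMS 5, 4 of 94 segments were called in this comparison (4.26%, all genes 4.62%), namely Igkv3-3, Igkv3-4, Igkv4-53 and Igkv5-39.

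Igkv5-39 itself had a log2 fold change of 2.30 ± 0.70 in HAMS against NP (edgeR adjusted p = 0.0795), which was 0.22 without HAMS 1. In HAMSA against HAMS it had −1.88 (edgeR adjusted p = 0.354), which turned to 0.17 without HAMS 1. Among the 18 named segments the any-diet adjusted p ran from 0.0931 (Igkv5-39) to 0.906 (Iglv3) by level. By use it ran from 0.0534 (Igkv5-43) to 0.953 (Iglv2).

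Counting segments whose CPM did not overlap between 2 diets gave 2 of 94 in HAMSA against HAMS (4.01% of all genes), 2 in HAMSB against HAMS (7.30%), 3 in HAMSA against HAMSB (8.81%), 4 in HAMS against NP (12.6%), 14 in HAMSA against NP (16.4%) and 2 in HAMSB against NP (5.27%). In each comparison this was a smaller share of the 94 segments than of all genes. The 14 in HAMSA against NP all stood higher in HAMSA, among them Iglv1, Igkv1-132, Igkv1-135, Igkv4-53 and Igkv6-20. Iglv1 stood at 239, 248, 286 and 295 CPM in HAMSA and at 197, 169.8, 183 and 174 CPM in NP. As a share it averaged 6.53% ± 0.392 in HAMSA and 5.76% ± 0.390 in NP (n = 4 each), and the 2 diets overlapped.

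Kappa against lambda was read in 2 ways. In the V segments the lambda share was 11.4%, 10.1%, 11.5% and 10.46% in HAMSA, 8.97%, 12.4%, 8.39% and 10.6% in HAMSB, 9.77%, 12.7%, 8.90% and 10.1% in HAMS, and 11.6%, 10.4%, 10.49% and 9.44% in NP. All diets overlapped, with means of 10.9% ± 0.700 in HAMSA, 10.1% ± 1.79 in HAMSB, 10.4% ± 1.62 in HAMS and 10.47% ± 0.873 in NP (SD, n = 4 each). The spread between libraries was larger than the differences (exact permutation p = 0.864, adjusted p = 0.864). Per kilobase of annotated exon the means were 10.9% in HAMSA, 10.1% in HAMSB, 10.3% in HAMS and 10.495% in NP.

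In the constant regions the diets separated into 2 sets. The share of Iglc2, the only lambda constant gene among the rows analysed here, in the sum of Igkc and Iglc2 was 11.1%, 8.94%, 9.05% and 7.96% in HAMSA, 12.4%, 11.6%, 14.7% and 12.3% in HAMSB, 7.84%, 10.2%, 9.83% and 9.91% in HAMS, and 12.3%, 13.7%, 14.5% and 11.6% in NP. Every HAMSA and HAMS library lay below every HAMSB and NP library. The means were 9.27% ± 1.33 in HAMSA, 12.7% ± 1.37 in HAMSB, 9.45% ± 1.09 in HAMS and 13.04% ± 1.31 in NP (SD, n = 4 each; exact permutation p = 0.00160, adjusted p = 0.0112). The difference was −3.46 percentage points in HAMSA against HAMSB, the acetylated against the butyrylated starch, and −3.77 in HAMSA against NP. It was 3.28 in HAMSB against HAMS and −3.59 in HAMS against NP. Each of these 4 pairs gave exact permutation p = 0.0286 and adjusted p = 0.171 over 42 tests. The other pairs overlapped, with a difference of −0.178 in HAMSA against HAMS (exact permutation p = 0.943) and −0.310 in HAMSB against NP (exact permutation p = 0.8286).

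**Figure D3:**
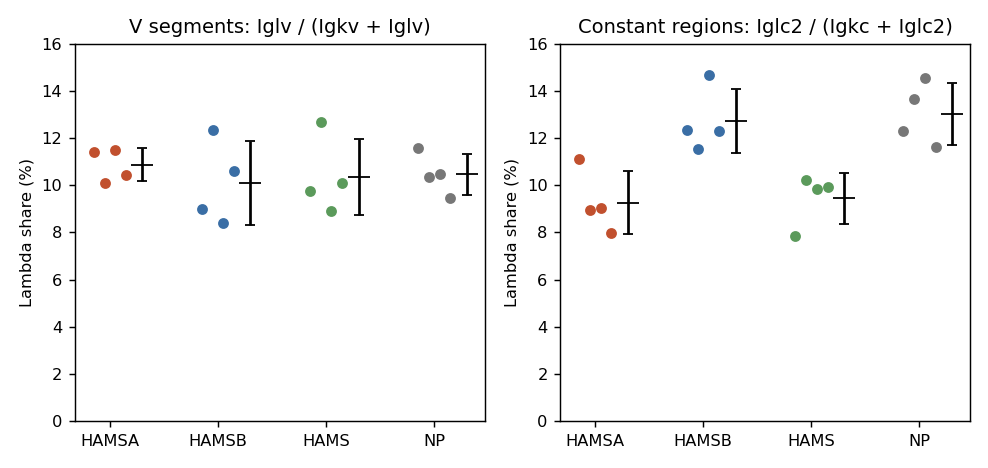
Lambda share in percent per library (points, coloured by diet) with mean ± SD of 4 libraries (black), from V segments at left and from constant regions at right. By V segments the diets overlap around 10.1% to 10.9%; by constant regions HAMSA and HAMS lie below HAMSB and NP.

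The difference held in every omission of 1 library (adjusted p = 0.00567 to 0.0250). It did not pass within the 10 libraries numbered 1 to 4 (exact permutation p = 0.0170, adjusted p = 0.0594). The 6 numbered 5 and 6 cannot decide, as HAMSA 6 and NP 5 are there the only libraries of their diets. Igkc averaged 8259 ± 2073 CPM in HAMSA, 5476 ± 1485 in HAMSB, 6686 ± 2685 in HAMS and 4886 ± 608 in NP, while Iglc2 averaged 834 ± 189 CPM in HAMSA, 779.7 ± 134 in HAMSB, 681 ± 229 in HAMS and 726 ± 22.99 in NP. Neither gene passed edgeR's test in any comparison; for Igkc the largest log2 fold change was 0.76 ± 0.27 in HAMSA against NP (adjusted p = 0.117).

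In HAMSA there were 46.1 ± 11.3 V kappa counts for every 100 of Igkc, with 51.5 ± 2.93 in HAMSB, 50.9 ± 12.1 in HAMS and 58.2 ± 6.53 in NP. For every 100 counts of Iglc2 there were 55.6 ± 15.9 V lambda counts in HAMSA, 40.5 ± 10.8 in HAMSB, 55.2 ± 4.71 in HAMS and 45.6 ± 6.42 in NP. V segments and constant regions thus gave different kappa to lambda balances from the same libraries. Igkc transcripts can lack a V segment and Iglv1 usually joins a constant region other than Iglc2, so the 2 shares do not count the same molecules. The part of plasma cells and of multimapping reads, whose values stand above, was not tested here either.

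Along the kappa locus the 101 segments with a position and a count lie from 18.4 to 3166 kb from the Igkj genes. Use was high at both ends and low in the middle. The 39 segments up to 1000 kb from Igkj took 44.3% ± 2.69 of V kappa counts (SD over 16 libraries) and the 30 beyond 2000 kb took 44.8% ± 3.11, while the 32 between took 8.80% ± 1.60, in no library more than 14.01%. All 27 rows of the Igkv4 family lie in that middle stretch, and Igkv4-53 alone held 4.04% of light chain V counts of the 7.33% of the family. By diet the middle stretch took 8.98% ± 0.763 in HAMSA, 9.55% ± 3.01 in HAMSB, 8.79% ± 1.02 in HAMS and 7.87% ± 0.395 in NP (n = 4 each). These stretches are shares of all V kappa counts, including 2 rows without a position. Divided at the middle of the list, the 50 segments nearest to Igkj took 50.8% of the counts of the 101 segments. The 51 farther ones took 49.2%. The J-proximal share was 49.4% ± 2.93 in HAMSA, 53.6% ± 3.57 in HAMSB, 51.3% ± 1.67 in HAMS and 48.8% ± 3.17 in NP (exact permutation p = 0.138, adjusted p = 0.255).

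**Figure D4:**
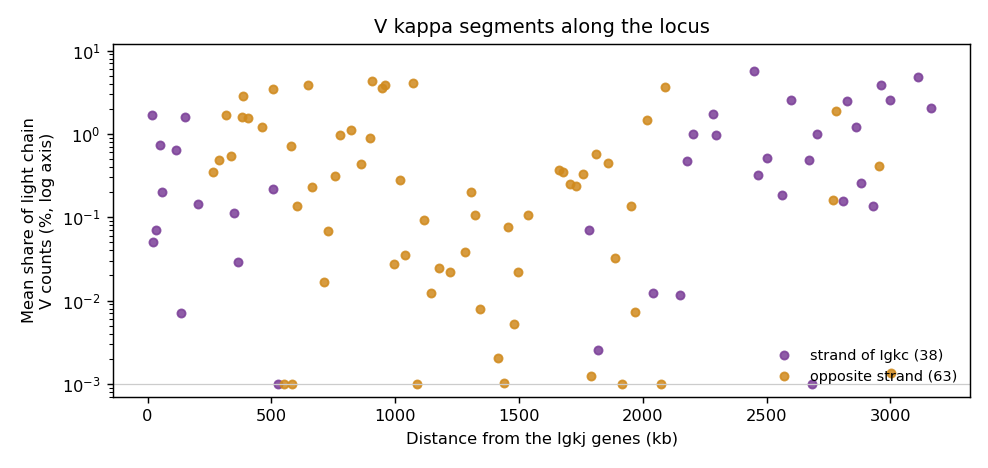
Mean share of light chain V counts (percent, log axis, mean of 16 libraries) against distance from the Igkj genes in kb, for 101 V kappa segments; shares under 0.001% are drawn on the grey line. Of the 38 segments on the strand of Igkc, 13 lie within 1000 kb, 2 between 1000 and 2000 kb and 23 beyond, and shares are lowest in the middle.

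A segment on the strand of Igkc is joined by deletion of the DNA between, and one on the opposite strand by inversion. Same-strand shares, like J-proximal shares, are of the V kappa counts of the 101 segments with a position. The 38 segments on the strand of Igkc took 46.0%, 47.2%, 47.9% and 42.8% of V kappa counts in HAMSA, 42.4%, 40.8%, 37.0% and 38.1% in HAMSB, 45.5%, 44.0%, 44.8% and 42.4% in HAMS, and 45.6%, 45.2%, 45.3% and 40.5% in NP. HAMSB libraries were the lowest, except that NP 5 stood below HAMSB 1 and HAMSB 2. The means were 46.0% ± 2.27 in HAMSA, 39.6% ± 2.47 in HAMSB, 44.2% ± 1.32 in HAMS and 44.2% ± 2.43 in NP (SD, n = 4 each; exact permutation p = 0.00945, adjusted p = 0.0331). HAMSA differed from HAMSB by 6.40 percentage points and HAMSB from HAMS by −4.61, both without overlap (exact permutation p = 0.0286, adjusted p = 0.171).

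The call ended in many, but not all, of the settings in which segments or libraries were left out. Within the libraries numbered 1 to 4 it held (exact permutation test, adjusted p = 0.0156). HAMSB 1 and HAMSB 2 are there the only HAMSB libraries. The segments that were high in single HAMSB libraries, Igkv5-43, Igkv5-45 and Igkv4-53, all lie on the strand opposite to Igkc. With Igkv5-43 and Igkv5-45 left out of every library the means were 47.9% ± 2.64 in HAMSA, 42.99% ± 3.27 in HAMSB, 46.02% ± 1.47 in HAMS and 46.3% ± 2.68 in NP, and the test no longer passed (exact permutation p = 0.105, adjusted p = 0.255). With the largest V kappa segment of each library left out it did not pass either (exact permutation p = 0.156, adjusted p = 0.273). Both alternatives were chosen after seeing the data. Leaving out 1 library ended the call in 10 of 16 cases, with adjusted p = 0.0505 to 0.117 without NP 3, NP 4, HAMS 4, HAMS 5, HAMSA 1, HAMSA 2, HAMSA 3, HAMSB 2, HAMSB 5 or HAMSB 6 (highest without HAMSB 5).

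**Figure D5:**
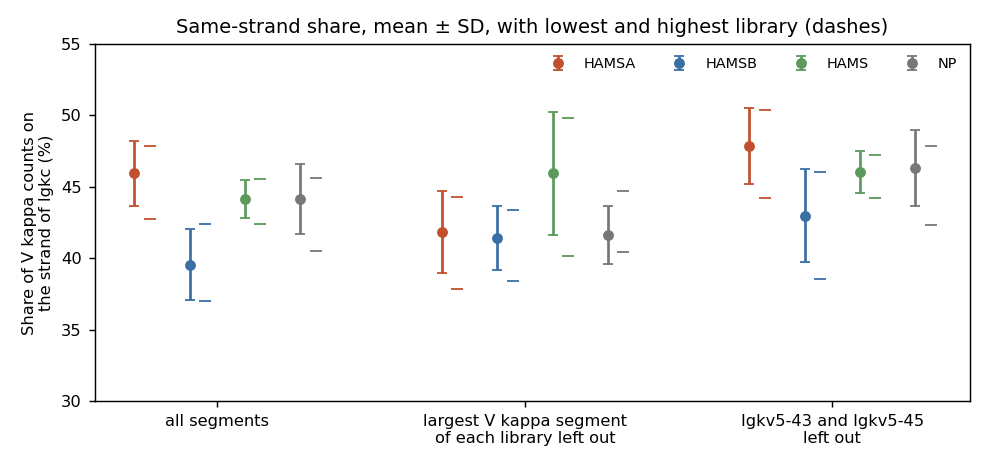
Share of V kappa counts on segments of the strand of Igkc, in percent (axis from 30 to 55), as mean ± SD of 4 libraries per diet, with dashes at the lowest and highest library. HAMSB is lowest at 39.6% with all segments, and the diets overlap once the largest segment of each library is left out.

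Few other genes of the light chain loci or of their control passed the test. Of 17 listed light chain genes 9 were tested with edgeR, and 0 were called in any comparison (0 to 6 of them had an unadjusted p under 0.05, with 6 in HAMSA against HAMSB and 6 in HAMSA against NP, where 19.4% and 25.1% of all genes did). The Igkj genes, whose short exons lie upstream of Igkc, summed to 145 ± 56.3 CPM in HAMSA, 224 ± 43.9 in HAMSB, 198 ± 69.7 in HAMS and 244 ± 12.8 in NP; Igkj2 had −0.88 ± 0.26 in HAMSA against NP (edgeR adjusted p = 0.0757). Vpreb2 was at 0 in all libraries. Rag1, of the recombinase that joins the segments, stood at 0.0541 to 0.546 CPM in all libraries.

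Of 17 genes for rearrangement and transcription of the loci 16 were tested with edgeR. Unadjusted p was under 0.05 for 0 to 7 of the 16, with 7 in HAMSA against HAMSB (all genes 19.4%). Only 1 gene was called, which rose in HAMS against NP (all genes called 4.33%), with 0 called in the other comparisons. It was Spib, an ETS factor that can bind light chain enhancers, at 1267, 1311, 1078 and 1151 CPM in HAMS and 901, 851, 878 and 985 CPM in NP (0.41 ± 0.10, edgeR adjusted p = 0.0232). Xbp1, the regulator of secretion in plasma cells, also rose in HAMS against NP (0.37 ± 0.09, adjusted p = 0.0364). It was the only 1 of the 7 plasma cell genes called there (all genes 4.33%). Of the 6 B cell markers 3 had positive fold changes in HAMS against NP (median 0.06) and 3 in HAMSA against NP (median 0.12). In each of these comparisons 1 marker was called, where 4.33% and 1.41% of all genes were. That gene, Cd22, a B cell coreceptor, fell in HAMS against NP (−0.46 ± 0.10, adjusted p = 0.0181) and in HAMSA against NP (−0.47 ± 0.10, adjusted p = 0.0387). These comparisons share the NP libraries. Bcl6, a transcriptional repressor listed as a marker of germinal centre B cells, rose in HAMSB against HAMS (0.92 ± 0.16, edgeR adjusted p = 0.00686). It was the only called gene of 6 tested in the germinal centre list, whose median was −0.30. In that comparison 1.68% of all genes were called.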

How the data were processed

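RNA of splenic B cells was read from 16 libraries, 4 for each of 4 diets. The deposited table holds raw counts of reads per gene; per the submitters' processing notes STAR, featureCounts (Subread), edgeR and limma were used. The sources used here give no version, genome build or annotation. The column sums equal the assigned reads of the authors' deposited counting summary, which also gives multimapping and unmapped read counts. Reads of NOD alleles that differ from a reference may have been lost, as may reads of near-identical segments.

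Counts were tested with edgeR 4.0.16 (R 4.3.3; TMM scaling, count filter with a minimum count of 10, quasi-likelihood test on all 16 libraries with diet as the only term), and p-values were adjusted over all 15021 tested genes with a threshold of 0.05. DESeq2 1.42.0 was an alternative. CPM are scaled by TMM; a share is a count divided by all Igkv and Iglv counts of the library. Library measures were compared among diets by exact permutation tests of the between-diet sum of squares over all 2627625 partitions into diets, adjusted over 7 measures. Each pair of diets was compared by a two-sided exact permutation test over 70 divisions. The script of the gene-wise test was tested on simulated data. Segments were matched by gene ID to GENCODE M21 (GRCm38): 105 of 107 matched, and 4 of these carry another symbol there, so positions follow the ID. Sequences are coding V exons of the M21 transcripts, aligned globally.

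Segments named by rule were the 15 with the highest mean share, the 3 of V lambda, any that passed a test, and any whose share in 1 library exceeded 1% and 3 times that of every other library. The members and gene lists were chosen with earlier results of these data known. Iglc1, Iglc3, Iglc4 and Iglj1 to Iglj3 were not analysed here. The summed level of the B cell marker list is not reported here.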

Additional observations from a re-analysis of the deposited data

Results flagged for a closer look

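Of 100 groups of 4 libraries examined (7 library measures and 18 named segments in 4 diets), 10 held a library whose gap to its nearest neighbour took up most of the range of its group. Chance flags about 1 in 20 such groups, and no explanation was tested.

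The segments high in a single library were Igkv5-39 in HAMS 1 (7.68% of light chain V counts, with 0.635% to 0.761% in the other HAMS libraries), Igkv5-43 in HAMSB 6 (5.43%, with 0.579% to 0.822% in the others), Igkv5-45 in HAMSB 6 (9.76%, with 2.999% to 3.78%) and Igkv8-24 in NP 5 (8.29%, with 2.31% to 3.10%). Smaller departures were Igkv1-110 in HAMSB 1 (5.76%, with 4.68% to 4.80% in the others), Igkv1-110 in HAMS 1 (7.39%, with 5.16% to 5.42%) and Igkv6-20 in HAMSA 1 (3.19%, with 2.46% to 2.51%). Igkv1-135 was low in HAMS 4 (4.03%, with 4.53% to 4.57%).

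Of the library measures, the lambda share of constant region counts was low in HAMS 1 (7.84%, with 9.83% to 10.2% in the other HAMS libraries). The share of V kappa counts on the strand of Igkc was low in NP 5 (40.5%, with 45.2% to 45.6% in the other NP libraries).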

How the results depend on the processing

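The number of called segments, 0 in each comparison, moved under these settings. The percentage of all genes called stands in brackets. DESeq2 called 2 in HAMSB against HAMS (4.40%), 4 in HAMSA against HAMSB (4.20%), 5 in HAMS against NP (8.06%), 3 in HAMSA against NP (8.30%) and 9 for any diet (11.4%). The fit of only the 2 diets compared called 5 of 92 in HAMSA against NP (2.71%). Numbers 1 to 4 alone gave 10 of 94 in HAMS against NP (8.14%), 5 in HAMSA against NP (17.55%), 1 in HAMSB against NP (0.612%) and 7 for any diet (8.25%). Numbers 5 and 6 alone also moved the number of called segments in HAMSA against HAMS, HAMSA against HAMSB, HAMS against NP and for any diet. Those counts are not given, as HAMSA 6 and NP 5 are there the only libraries of their diets. Omitting 1 library gave 0 to 1 in HAMSA against HAMSB. The 1 was Igkv3-1, without HAMSA 1 (0.517%) or HAMSA 6 (1.22%). In HAMS against NP the omissions gave 0 to 4, with 4 without HAMS 5 (4.62%) and 1 without HAMSB 5 (4.52%). HAMSA against NP had 0 to 1, with Igkv4-53 called without HAMS 4 (1.48%) or HAMS 5 (3.36%). For any diet the count was 0 to 3, with 3 without HAMS 5 (4.345%). In that test 1 each was called without HAMSA 1 (2.70%), HAMSA 6 (4.61%) or HAMSB 5 (3.12%). The other settings, 4 scalings and 2 filters among them, left 0. The cause was not tested. The fit with replicate block called 0 segments in every comparison, and 0, 163, 2, 378, 0 and 5 genes of all in HAMSA against HAMS, HAMSB against HAMS, HAMSA against HAMSB, HAMS against NP, HAMSA against NP and HAMSB against NP (without the block 0, 252, 117, 650, 212 and 11). The deviations of same-numbered libraries correlated at −0.379 to 0.600, above 0.1 in 8 of 15 pairs. As not every pair passed 0.1, the numbers were not taken to pair the libraries; what they stand for is not stated, and whether some share a batch was not tested.

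The lambda share of constant regions gave exact permutation p = 0.0170 in numbers 1 to 4 and 0.0889 in numbers 5 and 6, and 0.000810 to 0.00357 without 1 library. The same-strand share gave exact permutation p = 0.133 in numbers 5 and 6, 0.156 without the largest segment of each library, 0.105 without Igkv5-43 and Igkv5-45, and 0.00353 to 0.0335 without 1 library (not passing without NP 3, NP 4, HAMS 4, HAMS 5, HAMSA 1, HAMSA 2, HAMSA 3, HAMSB 2, HAMSB 5 or HAMSB 6). Within numbers 1 to 4 the same-strand share still passed (exact permutation test, adjusted p = 0.0156). The largest segment share gave exact permutation p = 0.0200 to 0.629 without 1 library. The remaining 4 measures kept their side of the threshold in all settings run. Igkv5-39 turned direction 3 times. Within numbers 5 and 6 its log2 fold change was −0.039 in HAMS against NP and 0.48 in HAMSA against HAMS. Without 1 library the value in HAMSA against HAMS ran from −2.22 to 0.17, turning without HAMS 1. Of 467 alternatives for the 18 named segments, 459 kept their side of the threshold. With 61188 to 167669 V counts a library, the spread between libraries and not depth limits most shares.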

Other observations

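Some segments were nearly silent beside a close copy that was well used. Igkv6-29 had 16 counts over all 16 libraries, although its V exon was identical to that of Igkv6-20, with 52246 counts, at 98.3% of bases. Igkv17-121 had 3 counts and Igkv8-26 had 10, and their nearest segments, Igkv17-127 and Igkv8-18, were identical to them at 97.99% and 97.8% of bases. These segments were picked after their values were seen, and the part of NOD alleles or of multimapping reads in their counts was not tested.

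In NP 1, the library with the highest share of Igkv8-16 (2.02%), the heavy chain gene Ighv2-7 held 1.71% of heavy chain V counts, 7.16 times the median of the other libraries. In HAMSA 3, where Igkv15-103 was highest, Ighv2-6-8 held 1.49%, 6.89 times the median. This did not hold in every library. In HAMS 1, with Igkv5-39 at 11.6 times, the highest heavy chain ratio among genes that held over 1% was 2.86. In HAMSA 2, with Igkv3-1 at 4.69 times, it was 2.32, for Ighv11-2. Ighv11-2 also had the highest heavy chain ratio in HAMS 5, at 3.65, where Igkv14-126 was at 3.20 times. Igkv14-126 held 6.13% of light chain V counts in HAMS 5, its highest library, and 4.73% in HAMSA 2, the next. These genes were picked after their values were seen. In HAMS 4 Ighv8-5 was at 5.13 times, while the highest light chain ratio there, among segments that held over 1%, was 2.41, for Igkv12-38.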
